A study of Homo sapiens with 20 samples.

Results

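Dual-specificity MAPK phosphatases are a family of enzymes that switch off MAP kinases, and 10 of their genes were followed here in NGP neuroblastoma cells treated with nutlin-3 or vehicle. The genes are DUSP1, DUSP2, DUSP4, DUSP5, DUSP6, DUSP7, DUSP8, DUSP10, DUSP14 and DUSP16. They were taken by their GENCODE gene names and are 10 of the 27697 genes tested. All 10 passed the filter on low counts.

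A MAP kinase becomes active when an upstream kinase phosphorylates a threonine and a tyrosine in its activation loop. A dual-specificity phosphatase removes both phosphates and so ends the signal. The inducible nuclear enzymes DUSP1, DUSP2, DUSP4 and DUSP5 are typical immediate-early or delayed-early gene products, and DUSP5 acts on ERK alone. DUSP6 and DUSP7 are cytoplasmic and prefer ERK. DUSP8, DUSP10 and DUSP16 act mainly on the stress kinases JNK and p38. DUSP14 is a small enzyme that lacks the kinase-binding domain of the others. Because ERK signalling drives the transcription of several of these genes, their mRNA is widely read as negative feedback in cells that depend on the RAS-MAPK pathway, neuroblastoma among them.

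NGP is an established human neuroblastoma line. The samples were 10 replicates treated with 8 µM racemic nutlin-3, a small molecule that binds MDM2, and 10 treated with ethanol as vehicle. All come from 1 cell line, so a replicate is a further sample of these cells and not another donor. A p-value for a difference between the groups sets it against the spread between samples, which may be technical. Poly(A) RNA was sequenced in strand-specific paired-end libraries. A sample held from 14455477 to 19532971 read pairs as estimated counts, and no 2 libraries held identical values. Levels are given as CPM, read counts scaled to library size, after TMM normalization. A gene was called significantly differentially expressed (SDE) at 5% FDR by edgeR's quasi-likelihood F-test with Benjamini-Hochberg adjustment over all genes tested. The fold changes are given on the log2 scale (LFC) as nutlin over vehicle, with the standard error (SE). In bulk RNA, more RNA per cell and more cells that express a gene cannot be told apart.

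MDM2, the target of the drug, rose in all nutlin samples, from 199–290 CPM in the vehicle samples to 4797–6005 CPM. The neuroblastoma markers were abundant, among them TH with 511 CPM in the vehicle samples. Markers of blood, endothelial, epithelial and stromal cells summed to between 29.1 and 35.8 CPM over 10 genes in the vehicle samples and to between 49.9 and 63.1 CPM in the nutlin samples. Of these 10 markers of other cell types 4 rose, 2 fell and 4 were not called, beside the same 32.4% and 38.5% of mRNAs. COL1A1 rose from 8.91 ± 1.35 to 35.2 ± 3.5 CPM, CD68 from 0.81 ± 0.43 to 3.95 ± 0.77 CPM, EPCAM from 0.45 ± 0.23 to 1.49 ± 0.44 CPM and PECAM1 from 0.42 ± 0.26 to 1.27 ± 0.34 CPM. PDGFRB fell from 17.6 ± 0.9 to 9.12 ± 1.73 CPM and VWF from 1.18 ± 0.31 to 0.66 ± 0.25 CPM. PTPRC and KRT5, which define blood and basal epithelial cells, had means below 0.2 CPM in both groups. The part of these markers in the phosphatase results was not tested.

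Of the 10 phosphatase genes, 8 were SDE with more mRNA in the nutlin samples, DUSP7 was SDE with less and DUSP8 was not SDE. Over all genes tested 58.8% were SDE, 32.3% up and 26.5% down. All 10 genes are mRNAs. Among the mRNAs tested 70.9% were SDE, 32.4% up and 38.5% down, so that a called gene is common in these data. The median level of the 10 genes was 33.0 CPM, against 13.8 CPM for the mRNAs and 1.64 CPM for all genes tested. These shares are therefore not matched for level, and a gene with more reads is easier to call. With a stricter count filter (filterByExpr) 13131 of 16347 genes were SDE, beside 8 of the 10 phosphatase genes. The largest increases were those of DUSP6 (4.39-fold), DUSP14 (3.82-fold) and DUSP4 (2.79-fold), and those of DUSP10, DUSP1, DUSP2, DUSP16 and DUSP5 ran from 1.89-fold down to 1.33-fold. In 7 of the 10 genes every nutlin sample lay above every vehicle sample, which held for 12.2% of all genes and 14.5% of the mRNAs tested. The median LFC of the 10 genes was 0.73, against 0.19 over all genes tested and -0.01 over the 17351 mRNAs.

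**Figure D1:**
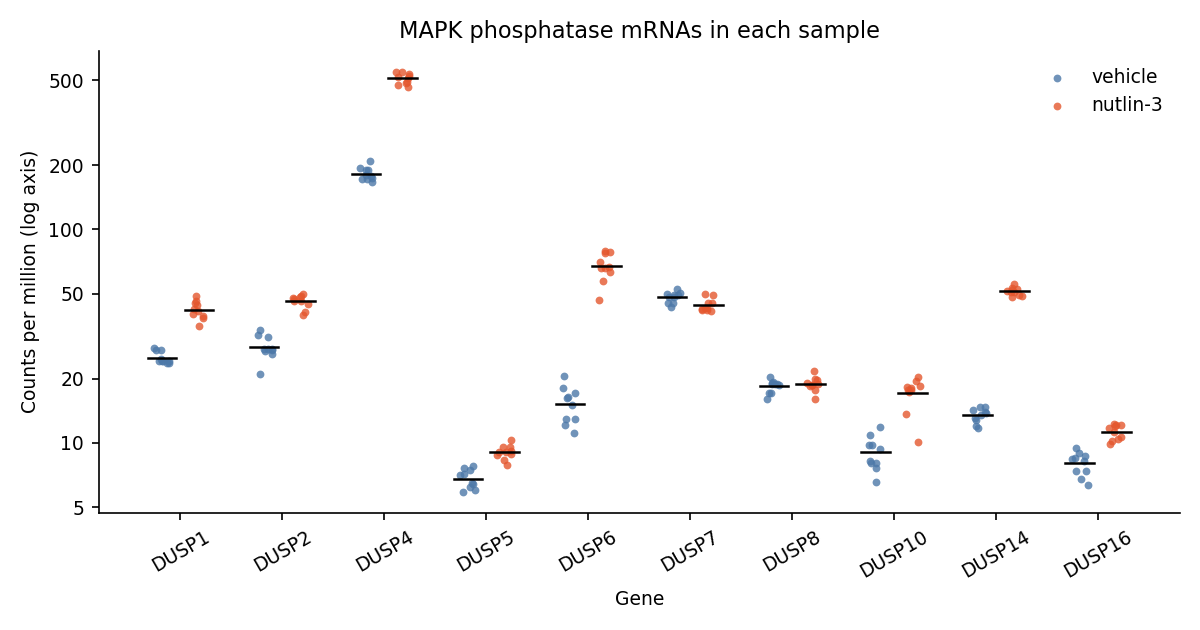
Level of each MAPK phosphatase mRNA in each of the 20 samples, in CPM on a log axis, with vehicle in blue, nutlin-3 in red and the mean as a black line. DUSP4 is the most abundant gene in every sample, the groups of DUSP6 and DUSP14 are the widest apart, and those of DUSP7 and DUSP8 overlap.

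Among the nuclear inducible enzymes, DUSP4 had by far the most reads. DUSP4 lies on chromosome 8 and had between 167 and 208 CPM in the vehicle samples (median 178) and between 462 and 547 CPM in the nutlin samples (median 515). The groups were separated by a gap wider than the range of either. Its LFC was 1.48 ± 0.04 (SE, edgeR adjusted p = 2.5e-23), and no setting or omitted sample took the value outside 1.47 to 1.56.

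DUSP1, the classical stress- and growth-factor-induced phosphatase, lies at chr5:172768096-172771195 on the minus strand (GRCh38, as are all positions here). It had between 23.7 and 27.7 CPM in the vehicle samples (median 24.2) and between 35.2 and 48.5 CPM in the nutlin samples (median 41.8). The groups did not overlap, and the nutlin samples were the more spread out. The LFC was 0.75 ± 0.05 (edgeR adjusted p = 1.3e-13).

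DUSP2, an enzyme known from activated lymphocytes, lies at chr2:96143169-96145440 on the minus strand. Vehicle samples had between 21.0 and 33.8 CPM (median 27.5) and nutlin samples between 39.5 and 49.6 CPM (median 46.9). Here too the groups were apart, with vehicle replicate 10 and nutlin replicate 6 the nearest samples across the gap. The LFC was 0.71 ± 0.06 (edgeR adjusted p = 1.4e-11).

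DUSP5, the ERK-specific nuclear phosphatase, lies at chr10:110497907-110511533 on the plus strand and had few reads. It had between 5.90 and 7.80 CPM in the vehicle samples (median 6.76) and between 7.89 and 10.3 CPM in the nutlin samples (median 9.02). The highest vehicle and the lowest nutlin sample differed by less than 0.1 CPM, so the groups only just did not overlap. The LFC of 0.42 ± 0.07 (edgeR adjusted p = 3.7e-06) rested on a mean of 103 estimated counts per vehicle sample and 141 per nutlin sample.

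Of the cytoplasmic ERK phosphatases, DUSP6 rose, while DUSP7 changed little, with a small fall whose call depended on the settings. DUSP6, the best-known feedback phosphatase of ERK, lies at chr12:89347235-89352501 on the minus strand. It had between 11.2 and 20.6 CPM in the vehicle samples (median 15.6) and between 46.5 and 78.9 CPM in the nutlin samples (median 66.2). Even the lowest nutlin sample, replicate 4, was far above the highest vehicle sample. Its LFC was 2.13 ± 0.10 (edgeR adjusted p = 4.9e-18), the largest of the family.

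DUSP7, its close relative, lies at chr3:52048919-52056571 on the minus strand. Vehicle samples had between 43.0 and 52.5 CPM (median 48.8) and nutlin samples between 41.5 and 49.9 CPM (median 42.8). The ranges overlapped in part. The nutlin median was below the lowest vehicle sample, and 8 of the 10 nutlin samples were below the vehicle median. The LFC of -0.12 ± 0.04 was called by edgeR (adjusted p = 0.018), but the call was lost with DESeq2 size factors (LFC -0.07, adjusted p = 0.14), with DESeq2, with a stricter count filter and on leaving out any of 7 single samples. Over all settings the LFC stayed between -0.14 and -0.04.

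Of the phosphatases directed at JNK and p38, DUSP10 and DUSP16 rose and DUSP8 was not SDE. DUSP10 lies at chr1:221701424-221742089 on the minus strand, with between 6.54 and 11.9 CPM in the vehicle samples (median 8.80) and between 10.1 and 20.4 CPM in the nutlin samples (median 17.9). It was the only gene with a rise whose groups overlapped, since nutlin replicate 4 lay below the highest 2 vehicle samples while the other 9 nutlin samples, from 13.7 CPM upwards, lay above all of them. The LFC was 0.92 ± 0.10 (edgeR adjusted p = 6.2e-09).

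DUSP16 lies at chr12:12473282-12562863 on the minus strand and had between 6.37 and 9.46 CPM in the vehicle samples (median 8.32). Nutlin samples had between 9.84 and 12.3 CPM (median 11.5), and the groups were apart by a narrow margin. The LFC was 0.49 ± 0.07 (edgeR adjusted p = 5.7e-07).

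DUSP8, which is expressed mainly in brain, heart and skeletal muscle, lies at chr11:1554051-1572271 on the minus strand. It had between 16.1 and 20.4 CPM in the vehicle samples (median 18.9) and between 15.98 and 21.7 CPM in the nutlin samples (median 18.7). The groups covered the same range. The LFC was 0.03 ± 0.05 (edgeR adjusted p = 0.62) and ran from -0.05 to 0.11 over the settings, so that a change of the size seen in DUSP5 lay outside all of them.

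DUSP14, the small enzyme without the kinase-binding domain, lies at chr17:37489891-37513501 on the plus strand. It had between 11.7 and 14.7 CPM in the vehicle samples (median 13.6) and between 48.0 and 55.5 CPM in the nutlin samples (median 51.3). Its nutlin samples were the tightest of the family, with a coefficient of variation of 4.34% where counting error alone gives 3.53%. The LFC was 1.93 ± 0.04 (edgeR adjusted p = 3.3e-25).

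**Figure D2:**
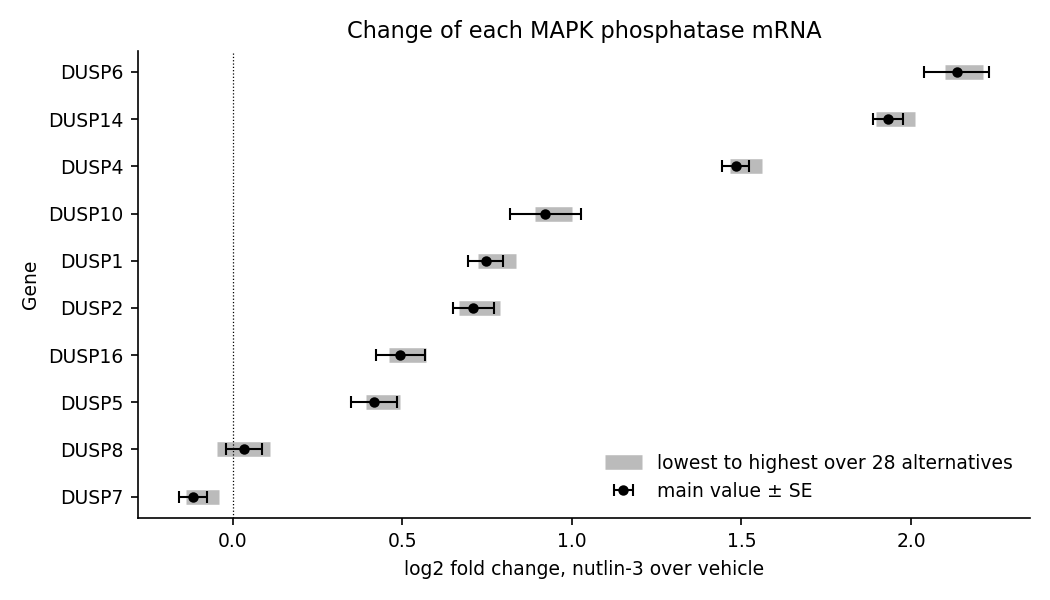
LFC of each gene (x axis, log2, nutlin-3 over vehicle) with its standard error as a black bar, and in grey the lowest to the highest LFC over 28 alternative settings, 20 of which leave out 1 sample. DUSP6, DUSP14 and DUSP4 lie above 1.4 in all of them, and only the grey bar of DUSP8 crosses 0.

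RefSeq promoters, 250 bases before to 50 bases after a start site, matched 8 of the 10 genes, all but DUSP4 and DUSP5, with 2 starts for DUSP10. They are shown for DUSP1 and DUSP8, which share a motif, for DUSP6, the gene with the largest rise, and for DUSP14, where a second start in the same gene is used below. The cAMP response element TGACGTCA, searched on both strands, occurs in 1.85% of 35116 promoters of this length, and capitals mark it in DUSP1 (chr5:172771146-172771445) and DUSP8 (chr11:1572222-1572521), both read on the minus strand.
DUSP1: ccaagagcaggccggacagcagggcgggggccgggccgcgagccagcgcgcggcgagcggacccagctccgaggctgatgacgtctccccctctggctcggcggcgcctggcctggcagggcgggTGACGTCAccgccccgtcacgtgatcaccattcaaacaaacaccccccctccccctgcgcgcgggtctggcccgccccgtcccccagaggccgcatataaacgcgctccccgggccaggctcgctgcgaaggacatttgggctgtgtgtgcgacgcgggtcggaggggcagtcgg
DUSP8: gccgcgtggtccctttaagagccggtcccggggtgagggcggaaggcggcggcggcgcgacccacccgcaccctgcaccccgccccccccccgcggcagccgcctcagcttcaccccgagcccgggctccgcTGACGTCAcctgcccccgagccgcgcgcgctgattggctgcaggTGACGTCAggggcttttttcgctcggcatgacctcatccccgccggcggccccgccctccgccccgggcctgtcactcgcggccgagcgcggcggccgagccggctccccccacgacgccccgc
DUSP1 held the element once, 125 bases before its start, and DUSP8 held it at 118 and at 74 bases before its start. One of these genes rose and the other was not SDE. In DUSP6 (chr12:89352452-89352751, minus strand), capitals mark a CCAAT box, 46 bases before the start and on the opposite strand. The box, CCAAT on either strand, was found in 34.6% of promoters, and also in DUSP7, DUSP8 and, 4 times, in DUSP10.
DUSP6: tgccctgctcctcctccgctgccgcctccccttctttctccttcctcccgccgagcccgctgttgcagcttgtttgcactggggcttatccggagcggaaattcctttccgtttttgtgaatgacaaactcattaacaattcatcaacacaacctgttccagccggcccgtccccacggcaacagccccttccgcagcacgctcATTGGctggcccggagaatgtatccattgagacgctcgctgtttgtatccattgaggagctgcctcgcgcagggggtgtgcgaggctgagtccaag
The CArG box, named here without its letters, was found in 1.29% of promoters and in none of these 9. The AP-1 motif TGACTCA was found in 4.95% of promoters and in none of these 9. A match is a description of the letters and not a bound site.

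Transcripts were compared next, since kallisto assigns reads to transcripts and a gene total can hide a change of start or exon. The files held 30 transcripts of the 10 genes, of which 27 were tested among 119877 transcripts. Of these, 14 rose, 1 fell and 12 were not called, where 12.7% of all transcripts rose and 10.7% fell. The shares over all transcripts include any with a total of 1 count or more in both groups, so they are not matched for level. DUSP1 has a single transcript. A transcript count is an estimate wherever transcripts share exons, and near-identical ones trade reads.

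DUSP14 was the gene whose transcripts moved most unequally. Its main transcript, DUSP14-206, has 3 exons and starts at the gene's first base, in a promoter with a GC content of 81%. A second transcript, DUSP14-204, begins 1573 bases further on, within the first intron of DUSP14-206, and the remaining one, DUSP14-205, begins 19988 bases further on. All carry the same coding length of 594 bases and differ in their first exons. The windows around the first start (chr17:37489641-37489940) and the second (chr17:37491214-37491513, from the GRCh38 genome) are shown on the plus strand because they are the start regions compared, and capitals mark the AP-1 motif TGACTCA, which spans the second start site.
DUSP14: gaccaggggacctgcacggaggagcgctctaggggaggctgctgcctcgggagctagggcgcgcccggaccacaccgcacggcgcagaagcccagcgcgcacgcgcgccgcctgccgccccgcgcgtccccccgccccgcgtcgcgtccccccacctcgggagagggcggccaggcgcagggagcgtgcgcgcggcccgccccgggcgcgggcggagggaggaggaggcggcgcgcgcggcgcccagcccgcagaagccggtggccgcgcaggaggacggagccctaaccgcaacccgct
DUSP14-204: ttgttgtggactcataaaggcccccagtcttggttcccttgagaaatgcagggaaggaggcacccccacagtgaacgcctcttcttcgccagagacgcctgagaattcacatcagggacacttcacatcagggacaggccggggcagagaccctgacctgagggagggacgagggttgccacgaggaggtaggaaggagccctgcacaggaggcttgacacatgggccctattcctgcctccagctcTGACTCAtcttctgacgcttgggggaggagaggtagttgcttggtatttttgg
The second window has a GC content of 57.3%, well below that of the first.

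DUSP14-206 had between 156 and 226 estimated counts in the vehicle samples and between 538 and 771 in the nutlin samples, with an LFC of 1.72 ± 0.07 (edgeR adjusted p = 2.8e-15). DUSP14-204 had less than 1 count in 7 of the 10 vehicle samples and 8.65, 9.42 and 10.97 counts in the others. In the nutlin samples it had between 55.3 and 152 counts, so that no sample of one group came near the other. The fitted LFC of DUSP14-204 was 5.15 ± 0.67 (edgeR adjusted p = 2.2e-06), a value that depends on the prior count because most vehicle samples are at 0. DUSP14-205 rose from at most 10.6 counts to between 34.2 and 57.8 counts, with an LFC of 2.72 ± 0.34 (edgeR adjusted p = 1.5e-06). The share of DUSP14-206 among the counts of the gene fell from 95.5% ± 3.4 (SD, n = 10) to 81.3% ± 4.3 (two-sided permutation test with 100000 resamples, p = 2e-05, adjusted p = 9e-05 over 9 genes with at least 2 transcripts counted). DUSP14-204 took up 13.6% ± 4.0 in the nutlin samples after 1.47% ± 2.43 in the vehicle samples.

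**Figure D3:**
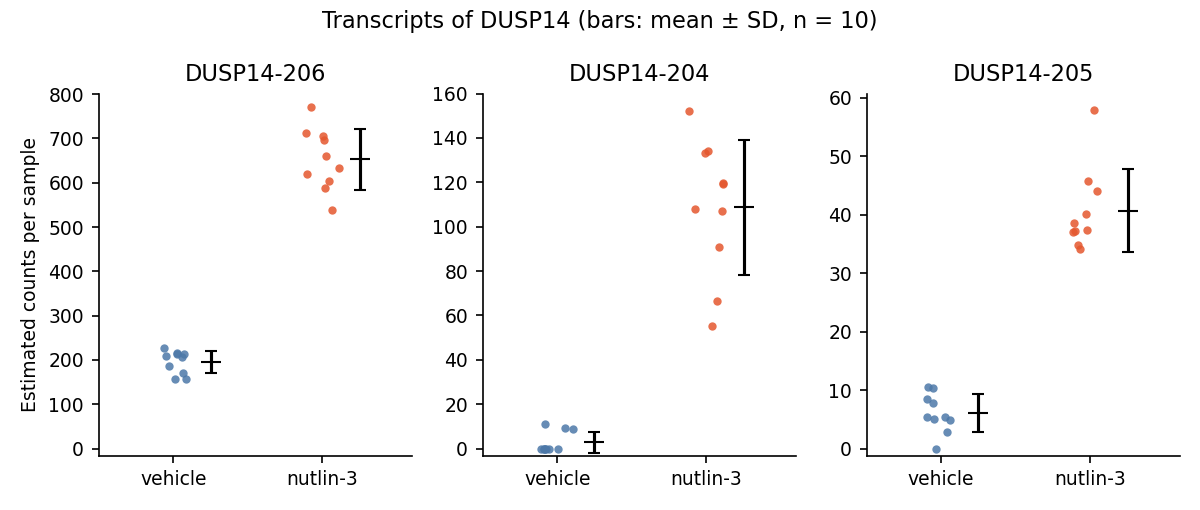
Estimated counts of the 3 DUSP14 transcripts in each sample (y axis, linear, a separate scale for each panel), with vehicle in blue, nutlin-3 in red and the mean ± SD of 10 samples in black. DUSP14-206 holds most reads in both groups, while DUSP14-204 is at 0 in most vehicle samples and at 55.3 counts or more in every nutlin sample.

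The share of the leading transcript also changed in DUSP7 and DUSP4, by much less. DUSP7-202, the longer transcript with a coding length of 1257 bases, fell from 91.0% ± 0.54 to 88.4% ± 1.5 of the counts of DUSP7 (permutation p = 1e-05, the smallest the resamples can give, adjusted p = 9e-05). The groups did not overlap, at 90.3% or more in the vehicle samples and 89.9% or less in the nutlin samples. As counts, DUSP7-202 fell with an LFC of -0.14 ± 0.04 (edgeR adjusted p = 0.016), and DUSP7-201, with a coding length of 825 bases, had an LFC of 0.26 ± 0.11 (adjusted p = 0.090). With a stricter count filter the edgeR adjusted p-values were 0.092 for DUSP7-202 and 0.011 for DUSP7-201, so which transcript is called depends on the filter. DUSP4-201 went from 99.0% ± 0.19 to 98.6% ± 0.21 of the counts of DUSP4 (permutation p = 0.00026, adjusted p = 0.00078), since the minor DUSP4-202 rose with an LFC of 1.95 ± 0.14 and DUSP4-201 with 1.497 ± 0.043.

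In DUSP6 the transcripts moved together. DUSP6-201, with a coding length of 1143 bases, DUSP6-202 with 705 bases and DUSP6-204 with 768 bases had LFC values of 2.15 ± 0.13, 2.13 ± 0.18 and 2.23 ± 0.23. DUSP6-201 held 51.7% ± 8.0 of the counts in the vehicle samples and 50.3% ± 5.1 in the nutlin samples, a difference of -1.49 percentage points (permutation p = 0.64, adjusted p = 0.69). By TPM, which corrects for the greater length of DUSP6-201, its share was only 23.8% ± 5.4 and 22.5% ± 3.2. DUSP10-203, a transcript annotated as a target of nonsense-mediated decay, rose with an LFC of 1.29 ± 0.45 (edgeR adjusted p = 0.043) beside the coding DUSP10-201 with 0.91 ± 0.12. The share of DUSP10-201 was 88.7% ± 5.5 in the vehicle samples and 85.9% ± 4.4 in the nutlin samples (permutation p = 0.22, adjusted p = 0.40).

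DUSP8 showed how far near-identical transcripts limit such shares. DUSP8-201 and DUSP8-202 both have a coding length of 1875 bases. DUSP8-202 had more than 167 counts in 17 samples but less than 0.5 in vehicle replicates 6 and 10 and nutlin replicate 6, where DUSP8-201 had 287, 238 and 257 counts. The total over DUSP8 transcripts varied only between 248 and 331 counts over all 20 samples. The leading share of DUSP8 therefore had an SD of 38.7 percentage points in the vehicle samples and 30.1 in the nutlin samples.

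Several of these genes are overlapped by lncRNA genes on the other strand, and whether the quantification used the strand of the reads is not given in the sources used here. ENSG00000274021 shares 1487 bases with DUSP6 and rose with it, from 0.30 ± 0.09 to 1.41 ± 0.43 CPM, with an LFC of 2.22 ± 0.23 (edgeR adjusted p = 9.3e-10). It had a mean of 4.45 counts per vehicle sample and 22.2 per nutlin sample, where DUSP6 had 233 and 1047. KRTAP5-AS1 shares 919 bases with DUSP8 and rose from 0.28 ± 0.13 to 0.85 ± 0.19 CPM (LFC 1.56 ± 0.24, edgeR adjusted p = 1.5e-06), while DUSP8 was not SDE. Their part in the phosphatase values was not tested.

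To compare levels between genes, the TPM values of the authors, which correct for transcript length, were added up per gene. In the vehicle samples DUSP4 stood first with a mean of 35.6 ± 3.0 TPM, followed by DUSP2 with 20.4 ± 2.7, DUSP7 with 15.9 ± 1.1, DUSP1 with 14.04 ± 1.02 and DUSP14 with 10.03 ± 0.65. DUSP6, DUSP8, DUSP10, DUSP5 and DUSP16 followed with 8.38 ± 2.37, 6.82 ± 1.34, 4.49 ± 1.03, 3.01 ± 0.43 and 2.06 ± 0.79 TPM. In this order only DUSP4 over DUSP2 and DUSP1 over DUSP14 had ranges that did not overlap. Within samples, DUSP2 was above DUSP7 in 10 of 10 vehicle samples and DUSP7 above DUSP1 and DUSP10 above DUSP5 in 9 of 10. The order was looser for DUSP14 over DUSP6, DUSP8 over DUSP10 and DUSP5 over DUSP16, with 8 of 10 each, and for DUSP6 over DUSP8, with 6 of 10.

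In the nutlin samples DUSP4 again stood first with 98.5 ± 7.1 TPM, and DUSP14 with 37.5 ± 1.5 and DUSP6 with 36.5 ± 6.3 TPM were next. These last 2 did not differ beyond their spread, with DUSP14 higher in 5 of 10 samples. DUSP2 with 32.6 ± 3.0, DUSP1 with 23.1 ± 1.4, DUSP7 with 14.5 ± 1.0 and DUSP10 with 8.71 ± 1.76 TPM came after them, and neighbours from DUSP2 to DUSP10 had ranges that did not overlap. DUSP8 with 6.63 ± 1.15, DUSP5 with 3.98 ± 0.40 and DUSP16 with 2.88 ± 0.53 TPM closed the list. From vehicle to nutlin DUSP14 went from the 5th to the 2nd place, DUSP6 from the 6th to the 3rd and DUSP7 from the 3rd to the 6th.

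The summed level of the 10 genes lay between 108 and 136 TPM in the vehicle samples (mean 121 ± 8.8) and between 228 and 284 TPM in the nutlin samples (mean 265 ± 18). Without DUSP4 the sums were 85.1 ± 6.1 and 166 ± 12 TPM. DUSP4 made up 29.5% ± 0.78 of the sum in the vehicle samples and 37.2% ± 0.67 in the nutlin samples. The share of DUSP14 was 8.34% ± 0.76 and 14.2% ± 0.82, that of DUSP6 6.88% ± 1.56 and 13.7% ± 1.6, and that of DUSP7 13.2% ± 0.86 and 5.49% ± 0.60. These shares follow from the levels above and were not tested.

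**Figure D4:**
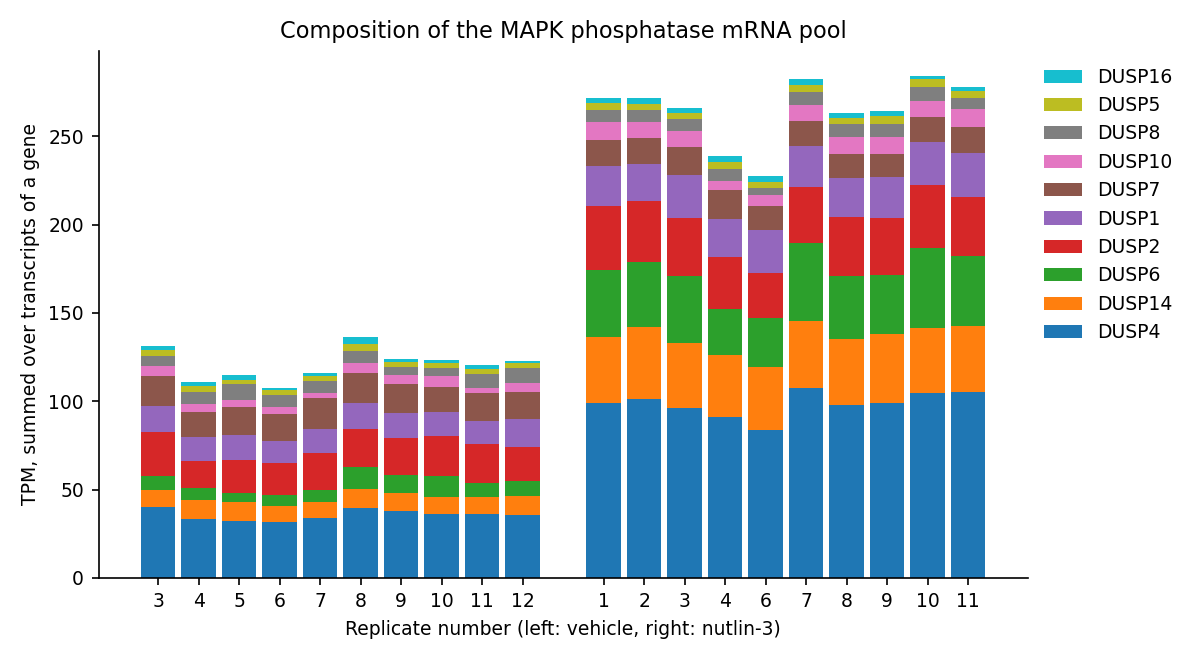
TPM of the 10 genes stacked for each sample (y axis, summed over transcripts), vehicle replicates on the left and nutlin-3 replicates on the right. The stacks reach 108 to 136 TPM in the vehicle samples and 228 to 284 TPM in the nutlin samples, with DUSP4, DUSP14 and DUSP6 at the bottom of each stack.

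The spread between replicates differed among the genes. DUSP6 and DUSP10 were the most variable, with biological coefficients of variation of 0.141 and 0.150 in the edgeR fit, against 0.052 to 0.086 for the other 8 genes. In CPM, the coefficient of variation of DUSP6 was 19.6% in the vehicle samples and 15.2% in the nutlin samples, where counting error alone gives 6.55% and 3.09%. For DUSP5 it was 10.1% and 7.41%, close to the 9.85% and 8.41% expected from counting, so nearly all of its spread is of the size of counting error.

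Correlations between the genes were computed within each group. Over the 10 nutlin samples, Pearson's r of log2 CPM was 0.91 for DUSP6 with DUSP10 (rho 0.67), 0.88 for DUSP4 with DUSP6 (rho 0.84) and 0.79 for DUSP4 with DUSP10 (rho 0.71). The permutation p-values of r were 0.00097, 0.0003 and 0.00093, and the Benjamini-Hochberg adjusted values over 90 correlations were 0.029, 0.027 and 0.029. Those of rho were 0.039, 0.0038 and 0.027, with adjusted values of 0.35, 0.18 and 0.34. On leaving out the 2 samples farthest from the median of the first-named gene, r was 0.87, 0.74 and 0.54. Nutlin replicate 4 was the lowest nutlin sample for 4 genes, DUSP4, DUSP6, DUSP10 and DUSP14. Without it r was 0.76, 0.83 and 0.70, and no pair passed the adjusted threshold. On log2(TPM + 1) in place of log2 CPM, r was 0.84, 0.88 and 0.74 with adjusted permutation p-values of 0.19, 0.12 and 0.21. There r for DUSP6 with DUSP10 fell to -0.11 on leaving out the 2 samples farthest from the median of DUSP6, so that on this scale the pair rests on those samples. The joint variation of these genes is therefore not settled by 10 samples.

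In the vehicle samples the same pairs had r of 0.72, 0.83 and 0.55, and no pair of the family passed the adjusted threshold. Of the 45 pairs, 7 in the vehicle samples and 6 in the nutlin samples had an unadjusted permutation p under 0.05. The lowest r was -0.73, for DUSP8 with DUSP10 in the vehicle samples (rho -0.81, permutation p = 0.016 and 0.0073, adjusted p = 0.21 and 0.22).

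The MAP kinases and their upstream kinases were read from lists chosen, like all lists here, with earlier results of these data known. The MAP kinase list also holds genes other than those of ERK, JNK and p38. Its counts are therefore not counts of the kinases that these phosphatases act on. Of 14 MAP kinase genes, 3 rose, 9 fell and 2 were not called, with a median LFC of -0.32, where 38.5% of mRNAs fell. In 8 of the 14 every nutlin sample lay below every vehicle sample, which held for 16.6% of all genes and 25.6% of the mRNAs tested. MAPK10, which encodes the neuronal JNK3, fell with an LFC of -1.55 ± 0.05, and MAPK11, which encodes p38 beta, rose from 0.74 ± 0.31 to 4.76 ± 0.94 CPM with an LFC of 2.69 ± 0.17. Among 10 genes of MAP kinase kinases and RAF kinases none rose, 6 fell and 4 were not called. Of the mRNAs tested 32.4% rose and 38.5% fell. MAP2K6, an activator of p38, fell from 8.20 ± 1.88 to 1.80 ± 0.60 CPM (LFC -2.19 ± 0.16), and MAP2K1, which encodes MEK1, fell with an LFC of -0.72 ± 0.04.

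Of 15 genes known as feedback inhibitors or targets of ERK, 12 rose and 3 fell, with a median LFC of 0.77, where 32.4% of mRNAs rose. The list was chosen with earlier results known, so the count is not independent evidence of a direction. The risers were SPRY1, SPRY2, SPRY3, SPRY4, SPRED2 and SPRED3, which inhibit the RAS-ERK pathway, the ETS factor gene ETV5, and IER3, PHLDA1, SPSB1, EPHA4 and LIF. The 3 that fell were SPRED1, ETV1 and ETV4. The cytokine gene LIF went from 1.04 ± 0.41 to 45.5 ± 2.1 CPM (LFC 5.44 ± 0.09) and IER3, an immediate-early gene, from 5.86 ± 0.83 to 61.9 ± 7.3 CPM (LFC 3.397 ± 0.076).

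Other dual-specificity phosphatases were split in direction. Of 16 listed genes 14 were tested, of which 5 rose, 4 fell and 5 were not called, with a median LFC of 0.06. Among the mRNAs tested 32.4% rose and 38.5% fell, so calls in both directions are common. DUSP9, a further cytoplasmic ERK phosphatase beside DUSP6 and DUSP7, was barely expressed and went from 0.69 ± 0.21 to 0.25 ± 0.11 CPM (LFC -1.47 ± 0.27, edgeR adjusted p = 2.2e-05). DUSP23 and DUSP12 had LFC values of -0.79 ± 0.13 and -0.48 ± 0.04. No test was made of a difference between the lists.

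**Figure D5:**
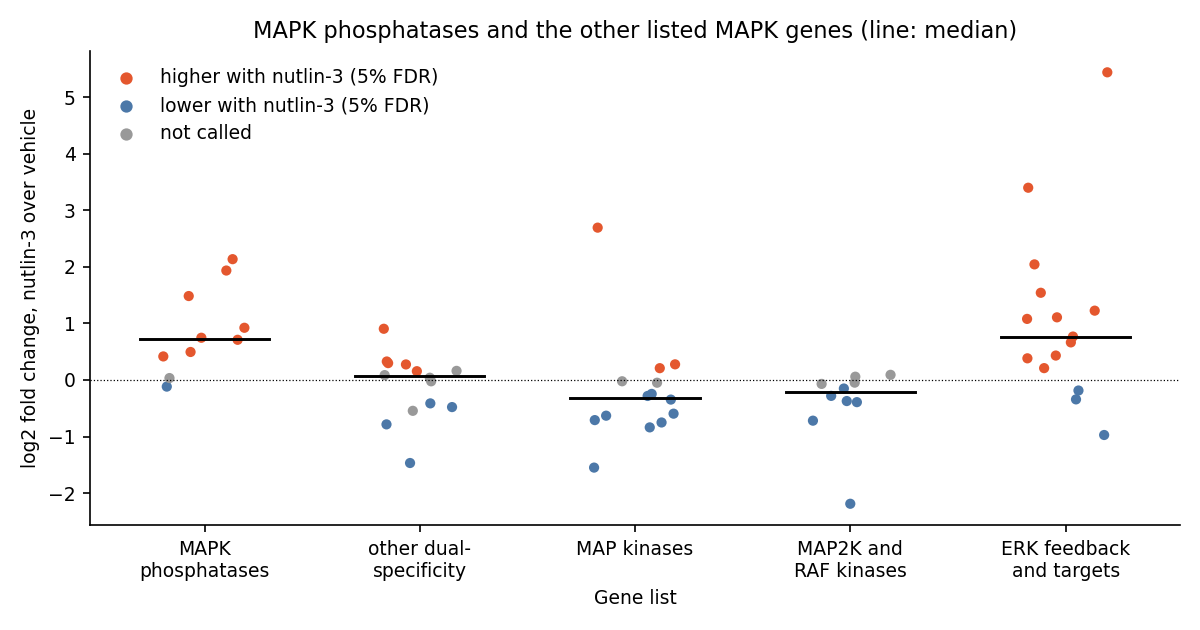
LFC of the MAPK phosphatases and of 4 lists of related genes (y axis, log2, nutlin-3 over vehicle), 1 point per gene, in red for SDE up, blue for SDE down and grey for not called, with the median of each list as a line. The medians are 0.73 for the phosphatases, 0.06 for other dual-specificity phosphatases, -0.32 for MAP kinases, -0.22 for MAP kinase kinases and RAF kinases and 0.77 for ERK feedback and target genes.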

How the data were processed

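RNA-seq of 10 vehicle and 10 nutlin samples of NGP cells was analysed, grouped by the sample titles. The authors quantified reads with kallisto 0.42.4 on GRCh38 transcripts, per the submitters' processing notes. The deposited estimated counts, effective lengths and TPM values cover 198968 transcripts, of which 191106 (96.05%) matched GENCODE release 44. The estimated counts were deposited by the authors without normalization. The TPM values were scaled by the authors' kallisto runs for effective length and depth. Estimated counts were summed per gene and rounded, and a gene entered the tests with a total of 1 count or more in both conditions, using edgeR 4.0.16 (R 4.3.3, quasi-likelihood, TMM). Effective lengths, in bases as deposited, were used in 1 alternative.

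Transcripts were tested in the same way. Shares and correlations were tested by permutation with 100000 resamples (numpy), on log2 CPM with a prior count of 2 for correlations. Alternatives were DESeq2 1.42.0, DESeq2 size factors, limma 3.58.1 voom, filterByExpr with a minimum count of 10, no filter, an effective length offset, 1% FDR, the replicate number as a block and leaving out each sample. The tests were tested on simulated data. Sequences came from RefSeq and the GRCh38 genome.

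The members and gene lists were chosen with earlier results of these data known. Named genes are all members, MDM2, DUSP9 and up to 2 genes of each other list. The latter have the largest absolute LFC among SDE genes of at least 1 CPM. Outside this rule, all SDE markers of other cell types were named, some of them below 1 CPM in 1 group. PTPRC and KRT5, which were not SDE, were named as well. The other ERK feedback and target genes were named, without values, after their values were seen. Some genes that this rule names are not reported here. Replicate numbers of the groups coincide for 8 samples each, but same-numbered samples did not deviate together (correlations from -0.02 to 0.03), so the number was left out of the main analysis and used as a block in 1 alternative only.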

Additional observations from a re-analysis of the deposited data

Results flagged for a closer look

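Among 40 groups of 10 values tested for a single distant sample (member levels, leading-transcript shares and summed TPM), 4 had one. All 4 were shares of a leading transcript, and none was a gene's level. Chance flags about 1 in 20 such groups where values are normally distributed. Its rate for shares, which are capped at 100%, is not known. The share of DUSP5-201 was 94.0% in vehicle replicate 8 and 100% in the other vehicle samples. That of DUSP6-201 was 33.8% in vehicle replicate 10 and between 47.6% and 60.9% in the others. The share of DUSP7-202 was 84.8% in nutlin replicate 3 and between 87.9% and 89.9% in the others. For DUSP8-202 the share was 0.0247% in nutlin replicate 6, where DUSP8-201 held the reads, and between 57.5% and 95.3% in the others.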

How the results depend on the processing

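The number of phosphatase genes called was 9, and 8 or 9 under every alternative, always with DUSP7 as the gene lost. The LFC of DUSP7 was -0.07 with DESeq2 size factors and with DESeq2, and -0.04 with filterByExpr. With a replicate block on the 16 samples that share a number it was -0.10 (adjusted p = 0.15), and -0.10 without the block (adjusted p = 0.099). The block left 8 phosphatase genes called and changed no other call of theirs, and 13 of their transcripts were called in place of 15, without DUSP7-202 (LFC -0.15, adjusted p = 0.18) and DUSP10-203 (LFC 1.2, adjusted p = 0.25). Leaving out vehicle replicate 5, 7, 10 or 11 or nutlin replicate 2, 8 or 9 gave DUSP7 values from -0.10 to -0.09 and no call. The other 9 genes kept their call in all 28 alternatives, 8 of them as rises, while DUSP8, never called, had an LFC of -0.05 with the effective length offset in place of 0.03. The listed genes called, 42 in the main analysis, ranged from 39 to 43. The count of correlations past the threshold went from 3 to 0 on log2(TPM + 1) and to 0 without nutlin replicate 4, an alternative chosen after seeing the data. The cause was not tested. With about 100 to 140 counts per sample, DUSP5, DUSP10 and DUSP16 are the genes most limited by depth in the vehicle samples.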
